A study of Mus musculus with 6 samples.

Results

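The genes described here are 10 regulators of kidney formation: the nephron progenitor genes Six2, Cited1, Eya1, Osr1 and Sall1, the paired box genes Pax2 and Pax8, the LIM homeobox gene Lhx1, and the branching pair Gdnf and Ret. They were chosen by symbol from the deposited gene tables, and all 10 were among the 24422 symbols measured. The series compared 3 kidneys from pups of iron-starved dams, whose synthetic chow held 2 to 6 ppm iron (FeD), with 3 kidneys from pups of iron-replete dams, whose chow held 220 ppm (control). The pups were all wild type C57BL/6 mice at postnatal day 15, and each kidney gave a separate RNA-seq library. The dams kept their diet from before mating, through pregnancy and while nursing, per the labels. The numbers of litters are not given, so litter and diet cannot be told apart. Per the study's methods both sexes were used in the same number, but the sex behind each library is not given in the sources used here. The 10 genes were taken up to ask whether transcripts of the embryonic kidney persisted in FeD kidneys at an age when nephron formation is normally over.

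The mouse kidney forms from a dialogue between the ureteric bud, which branches into the collecting ducts, and a cap of mesenchyme around each bud tip, which holds the nephron progenitors. The cap secretes GDNF, a ligand that binds the receptor RET and its co-receptor GFRA1 on the bud tip and drives branching. SIX2 keeps progenitors undifferentiated and CITED1 marks the earliest of them, while PAX2, SALL1, EYA1 and OSR1 specify the mesenchyme upstream. Progenitors that leave the cap turn on Lhx1 and become renal vesicles, the precursors of nephrons. In the mouse the progenitor pool is used up in the first days after birth, whereas PAX2 and PAX8 stay on in parts of the tubule and duct.

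Raw counts on genes totalled 16189041 to 20374327 in control kidneys and 13732173 to 20853293 in FeD kidneys. A gene with 3 counts, taken as the floor of detection, stood at 0.144 to 0.219 CPM, the counts divided by library size, which covers counting error only. Of the 24422 symbols, 15145 passed the filter on low counts and were tested with edgeR. Of these, 45.7% differed at an adjusted P under 0.05. Judged by adrenal markers, 1 library stood apart: FeD kidney 2 held RNA of the adrenal gland. Its summed level of 8 adrenal markers was 13625 normalized counts (counts scaled to a common library size), against 138 to 301 in the other 5 kidneys. The defining medulla marker Th, which starts catecholamine synthesis, had 1430 normalized counts there and 0.9 to 3.8 elsewhere. Markers of autonomic neurons and glia moved with it, with a summed level of 1241 normalized counts against 118 to 217 over 6 genes. RET is known from adrenal medulla and autonomic neurons as well, so results are given with and without FeD kidney 2. The tissue label held in all kidneys, since the 6 proximal tubule, 5 loop and distal tubule and 5 podocyte markers listed were detected in every kidney. All 6 proximal tubule markers and 3 of the 5 loop and distal markers were lower in FeD kidneys at that threshold, beside 23.3% of all tested genes. The podocyte markers had log2 fold changes of -0.18 to -0.03. Tfrc, the transferrin receptor that takes up iron, had 6453 ± 531 normalized counts in control and 4671 ± 200.5 in FeD kidneys (log2 fold change -0.47, adjusted P = 0.0021, edgeR).

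The 10 genes covered a wide range of transcript levels. Levels were compared between genes as RPKM, which is CPM after normalization divided by the kilobases of exon. In control kidneys Sall1 stood highest at 21.2 ± 0.709 RPKM (SD, n = 3), followed by Pax8 at 20.6 ± 1.1 RPKM and Pax2 at 13.8 ± 1.70 RPKM. Sall1 and Pax8 overlapped between kidneys, whereas every control kidney had less Pax2 than either. Lhx1 at 3.62 ± 0.351 RPKM and Cited1 at 3.04 ± 0.396 RPKM formed a middle tier with overlapping values. Osr1 followed at 0.957 ± 0.205 RPKM, clear of its neighbours in the order. Ret stood at 0.199 ± 0.0333 RPKM, Eya1 at 0.163 ± 0.0853 RPKM, Gdnf at 0.162 ± 0.120 RPKM and Six2 at 0.0961 ± 0.0206 RPKM. In this lowest tier Ret, Eya1 and Gdnf overlapped, and Six2 overlapped Eya1 and Gdnf but lay below Ret. The order in FeD kidneys differed in that Pax8, at 22.8 ± 2.22 RPKM, had the highest mean, and in that Ret, at 0.679 ± 0.254 RPKM, and Eya1, at 0.631 ± 0.361 RPKM, overlapped Osr1, at 0.716 ± 0.0397 RPKM.

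**Figure D1:**
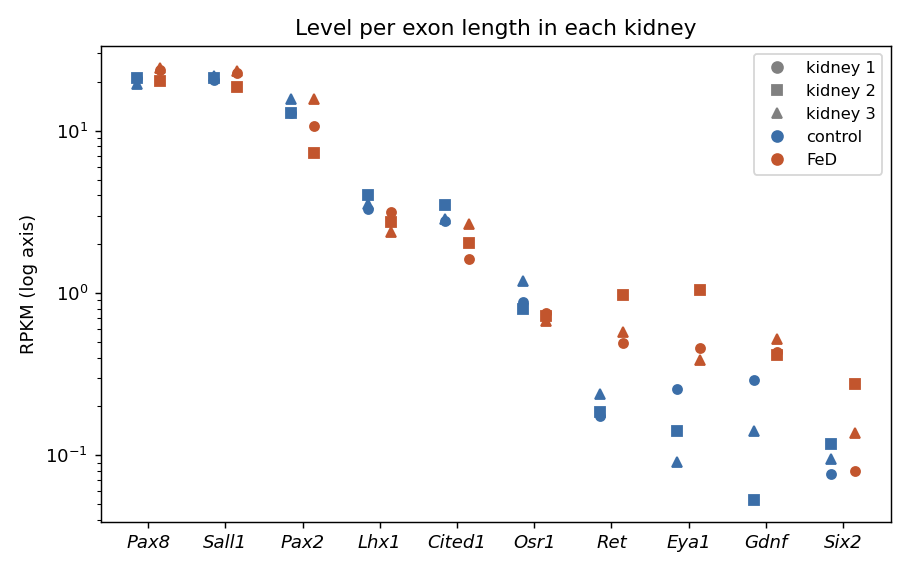
Level of each gene in each kidney as RPKM on a log axis, with blue symbols for the 3 control kidneys and orange symbols for the 3 FeD kidneys. Pax8, Sall1 and Pax2 lie at the top, and Ret, Eya1, Gdnf and Six2 lie at the bottom, where the FeD kidneys lie above the control kidneys for Ret, Eya1 and Gdnf.

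Of the 10 genes, 9 were tested, and Six2 missed the filter. At an adjusted P under 0.05, 3 genes were higher in FeD kidneys (Ret, Eya1 and Gdnf) and 1 was lower (Lhx1), beside 22.4% of all tested genes higher and 23.3% lower. The 4 genes are 44.4% of the 9, close to the 45.7% of all genes. The 3 genes that rose also changed at least 2-fold, which 4.34% of all tested genes did in that direction. None of the 9 genes, 0 by edgeR and 0 by DESeq2, fell at least 2-fold, beside 5.69% of all tested genes; at an unadjusted P under 0.05 Cited1 and Lhx1 were lower, both by less than 2-fold. The filter asked for 0.553 CPM in any 3 kidneys, which 2 control kidneys reached for Eya1 and 1 for Gdnf, against all 3 FeD kidneys for both, so both entered with the help of the group in which they were higher. FeD and control kidneys did not overlap for 6 of the 9 genes, beside 58.1% of all tested genes. FeD lay above in 3 of them, beside 28.3% of all genes, and below in 3, beside 29.7%. The median log2 fold change of the 9 genes was 0.03, and that of all tested genes was -0.0018.

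**Figure D2:**
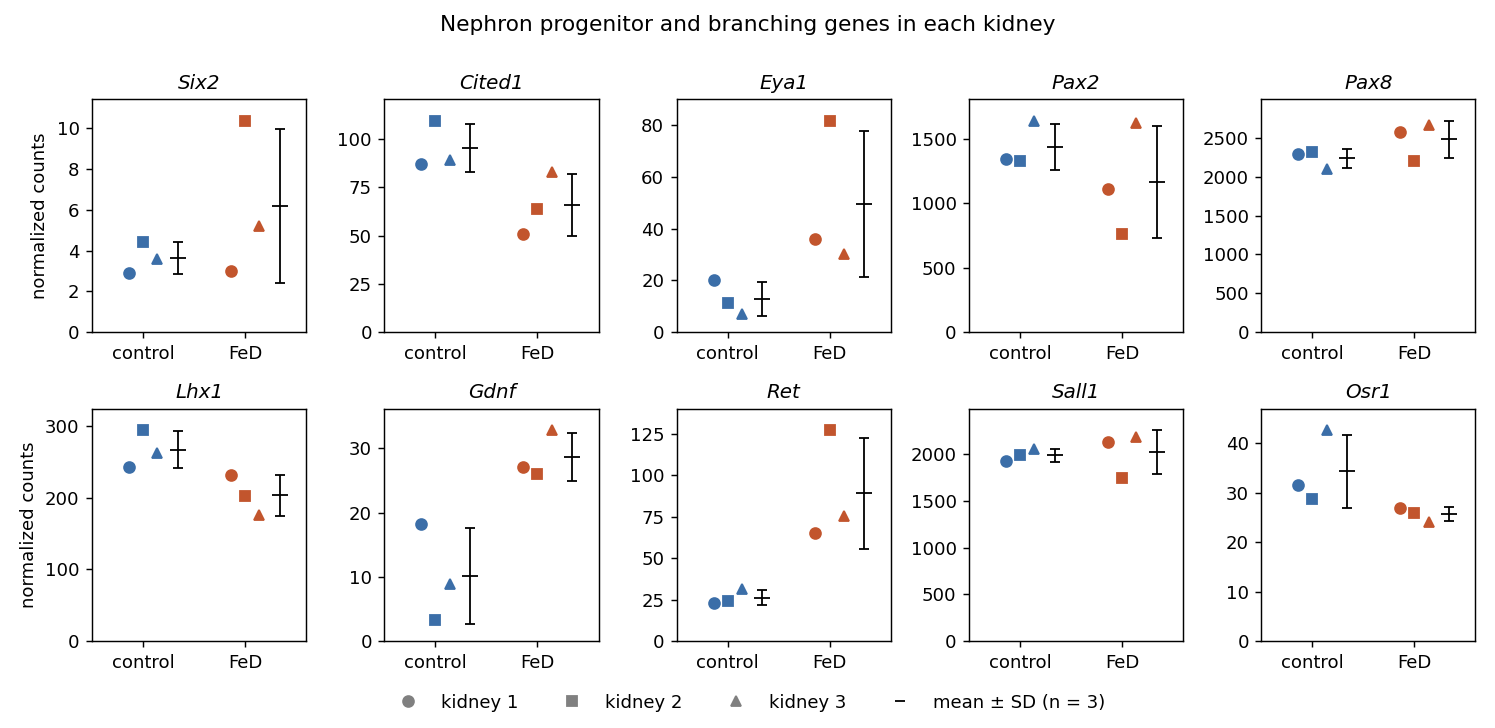
Normalized counts of each of the 10 genes in each kidney, 1 panel per gene with its own axis from 0, with the mean and SD of 3 kidneys beside the points. The FeD kidneys lie above the control kidneys for Eya1, Gdnf and Ret, lie below them for Cited1, Lhx1 and Osr1, and overlap them for Six2, Pax2, Pax8 and Sall1.

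Six2, the regulator that maintains the progenitor pool, was at the limit of detection on both diets. It is a minus-strand gene at 86083608 to 86087594 of chromosome 17 (mm9). It had 3, 4 and 4 raw counts in control kidneys and 3, 8 and 6 in FeD kidneys, 11 and 17 reads in all. The groups overlapped, and the highest value, 8 counts, was in FeD kidney 2. When all genes with any count were tested, the log2 fold change of Six2 was 0.72 (SE 0.67, adjusted P = 0.46, edgeR), so a difference was not detectable at this depth.

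Cited1, a transcriptional co-activator and marker of the uncommitted cap (chromosome X, 99442720 to 99447520, minus strand), had 87.2, 109.6 and 89.0 normalized counts in control kidneys. In FeD kidneys it had 51.0, 63.6 and 82.9. Each FeD kidney lay below each control kidney, but FeD kidney 3 came close to the lowest control. The log2 fold change of -0.52 (SE 0.22) did not pass (edgeR adjusted P = 0.082, unadjusted P = 0.043, 95% interval -1.03 to -0.02). Without FeD kidney 3 it was -0.72 and passed (adjusted P = 0.019, edgeR).

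Eya1, a phosphatase and co-activator of homeobox factors such as SIX2 (chromosome 1, 14159035 to 14300281, minus strand), had 20.1, 11.1 and 7.12 normalized counts in control kidneys. In FeD kidneys it had 36.0, 81.8 and 30.2, so every FeD kidney was above every control and FeD kidney 2 was far above the others. The rise was 3.78-fold, a log2 fold change of 1.92 (SE 0.51, adjusted P = 0.015, edgeR). Without FeD kidney 2, the library with adrenal RNA, the log2 fold change was 1.39 and still passed (adjusted P = 0.033, edgeR). The call was lost without control kidney 2 (1.83, adjusted P = 0.060) or control kidney 3 (1.62, adjusted P = 0.061, edgeR). Raw counts of Eya1 were 8 to 21 in control and 35 to 63 in FeD kidneys.

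Osr1, a zinc finger factor of the early nephrogenic mesoderm (chromosome 12, 9581248 to 9588305, plus strand), had 31.6, 28.8 and 42.7 normalized counts in control kidneys and 27.0, 26.0 and 24.2 in FeD kidneys. The FeD kidneys lay below the controls without overlap. The log2 fold change of -0.42 (SE 0.25) did not pass (adjusted P = 0.20, edgeR, 95% interval -1.0 to 0.16), and it did not pass in any of 12 alternative analyses. Without control kidney 3 it was -0.24 (adjusted P = 0.55, edgeR).

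Sall1, a zinc finger repressor that the mesenchyme needs to attract the bud (chromosome 8, 91551147 to 91568061, minus strand), had 1923, 1986 and 2056 normalized counts in control kidneys. In FeD kidneys it had 2130, 1751 and 2187, on both sides of the controls, with FeD kidney 2 lowest of all. The log2 fold change was 0.03 (SE 0.09, adjusted P = 0.83, edgeR), and its 95% interval ran from -0.17 to 0.23. Its sign turned without control kidney 1 (-0.00064) and without FeD kidney 3 (-0.02).

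The paired box genes, which share ancestry and act together in the early kidney, were both abundant. Pax2 (chromosome 19, 44830539 to 44912758, plus strand) had 1342, 1326 and 1640 normalized counts in control kidneys and 1112, 760 and 1623 in FeD kidneys. The FeD kidneys spread widely, with FeD kidney 3 inside the control range and FeD kidney 2 lowest. The log2 fold change of -0.30 (SE 0.23) did not pass (adjusted P = 0.33, edgeR, 95% interval -0.83 to 0.24). Without FeD kidney 3 it was -0.60 and passed (adjusted P = 0.016), and without FeD kidney 2 it was only -0.05 (adjusted P = 0.83, edgeR).

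Pax8 (chromosome 2, 24276071 to 24331119, minus strand) had 2295, 2313 and 2098 normalized counts in control kidneys. FeD kidneys had 2572, 2207 and 2664, so FeD kidneys 1 and 3 lay above the controls and FeD kidney 2 among them. The log2 fold change of 0.15 (SE 0.08) did not pass (adjusted P = 0.16, edgeR, 95% interval -0.04 to 0.34), whereas without FeD kidney 2 it was 0.25 and passed (adjusted P = 0.025, edgeR). No stretch of 100 bases in transcripts of the 10 genes, Pax2 and Pax8 included, recurred in another protein-coding gene. Exons of Pax8 overlap Gm13415 on the opposite strand over 1.43% of their bases, and exons of the other 9 genes overlap none.

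Lhx1, which marks the renal vesicle and is needed for nephron patterning (chromosome 11, 84331479 to 84338923, minus strand), was lower in FeD kidneys. It had 243.5, 294.5 and 261.8 normalized counts in control kidneys and 232.1, 202.4 and 175.4 in FeD kidneys. Every FeD kidney lay below every control, with FeD kidney 1 close to the lowest. The level in FeD kidneys was 0.763 of that in controls, a log2 fold change of -0.39 (SE 0.14, adjusted P = 0.045, edgeR). The call stood just under the threshold and was lost on leaving out each kidney in turn, apart from FeD kidney 1, with log2 fold changes of -0.45 to -0.28 and edgeR adjusted P values of 0.061 to 0.16. It was also lost with no filter (adjusted P = 0.051, edgeR), with DESeq2 (adjusted P = 0.059) and with the replicate block (adjusted P = 0.067, edgeR).

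Gdnf, the ligand (chromosome 15, 7761011 to 7787575, plus strand), had 18.2, 3.32 and 8.90 normalized counts in control kidneys. In FeD kidneys it had 27.0, 26.0 and 32.8, close together and above every control, and FeD kidney 2 was the lowest of them. The rise was 2.77-fold, a log2 fold change of 1.47 (SE 0.47, adjusted P = 0.034, edgeR). Gdnf passed the filter on low counts mainly through the FeD kidneys, and without that filter the call was lost (1.47, adjusted P = 0.056, edgeR). It rested on few reads, with 3 to 19 raw counts in control and 20 to 38 in FeD kidneys. Without FeD kidney 2 the log2 fold change was 1.55 (adjusted P = 0.047, edgeR). Without control kidney 1, the highest control, it was 2.16 (adjusted P = 0.012, edgeR). The call was lost without control kidney 2 (1.08, adjusted P = 0.084), control kidney 3 (1.37, adjusted P = 0.12), FeD kidney 1 (1.53, adjusted P = 0.072) or FeD kidney 3 (1.36, adjusted P = 0.071, edgeR in each case).

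Ret, the receptor tyrosine kinase of the bud tip (chromosome 6, 118101766 to 118147762, minus strand), changed with the smallest adjusted P of the 10 genes. It had 23.0, 24.4 and 31.2 normalized counts in control kidneys and 65.0, 127.2 and 75.2 in FeD kidneys. Every FeD kidney was far above every control, and FeD kidney 2 was the highest. The rise was 3.36-fold, a log2 fold change of 1.75 (SE 0.31, adjusted P = 0.0024, edgeR, 95% interval 1.05 to 2.45). A larger fold change, in either direction, was seen in 3.64% of the tested genes. Without FeD kidney 2 the log2 fold change was 1.44 (adjusted P = 0.0030, edgeR). FeD kidneys 1 and 3 had 2 raw counts of Th each, under the floor of 3, beside 65.0 and 75.2 normalized counts of Ret. The part of adrenal or autonomic cells in the level of Ret was not tested in any kidney. Ret passed in all 12 alternative analyses, with log2 fold changes of 1.44 to 1.95. Whole kidneys were sequenced, so more RNA per cell and more cells of a type cannot be told apart.

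**Figure D3:**
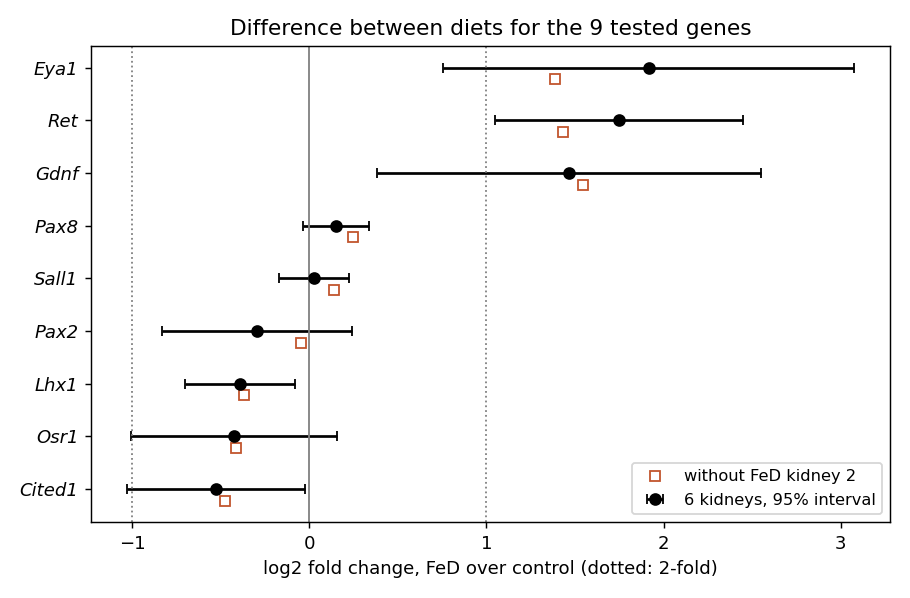
Log2 fold change of FeD over control kidneys for the 9 tested genes, with filled circles and 95% intervals from all 6 kidneys and open squares for the fit without FeD kidney 2. Eya1, Ret and Gdnf lie above a 2-fold rise in both fits, and the other 6 genes lie within 2-fold of no change.

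Promoter sequences show what lies at the start sites of the genes that passed the test. RefSeq windows of 250 bases before to 50 bases after a start (build GRCm38.p6, whose positions differ from those of mm9) were matched for 7 of the 10 genes, 14 windows in all. Eya1, Ret and Osr1 had no entry. Because iron-dependent enzymes mark hypoxia inducible factor for breakdown, the cores of its binding motif, ACGTG and GCGTG, were searched on both strands. The cores differ in the first base alone, so no base can start a match of both on the same strand. Either core was present in 7 of the 14 windows, beside 43.8% of 32851 windows of all genes (19.6% with ACGTG and 32.4% with GCGTG). Gdnf, which rose, and Lhx1, which fell, are shown in the gene's direction, with the cores in capitals.
Gdnf start 1, chr15:7809798-7810097, plus strand: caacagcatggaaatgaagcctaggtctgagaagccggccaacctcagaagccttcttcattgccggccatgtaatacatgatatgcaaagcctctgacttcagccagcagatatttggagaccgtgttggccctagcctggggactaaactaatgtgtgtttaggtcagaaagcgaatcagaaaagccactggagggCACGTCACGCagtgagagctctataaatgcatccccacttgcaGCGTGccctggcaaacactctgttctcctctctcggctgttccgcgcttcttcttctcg
Gdnf start 2, chr15:7813477-7813776, plus strand: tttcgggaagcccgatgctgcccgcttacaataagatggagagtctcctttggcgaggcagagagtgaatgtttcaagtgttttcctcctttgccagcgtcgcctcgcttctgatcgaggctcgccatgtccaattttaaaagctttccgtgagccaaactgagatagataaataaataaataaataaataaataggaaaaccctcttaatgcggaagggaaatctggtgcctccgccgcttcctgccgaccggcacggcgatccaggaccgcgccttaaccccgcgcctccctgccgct
Lhx1, chr11:84525485-84525784, minus strand: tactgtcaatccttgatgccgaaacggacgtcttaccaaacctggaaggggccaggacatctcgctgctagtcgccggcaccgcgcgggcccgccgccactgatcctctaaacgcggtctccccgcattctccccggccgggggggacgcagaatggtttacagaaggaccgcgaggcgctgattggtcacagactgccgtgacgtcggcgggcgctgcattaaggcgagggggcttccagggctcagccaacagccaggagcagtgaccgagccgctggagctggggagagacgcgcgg
The window at start 1 of Gdnf held ACGTG once, at position -52 from the start on the reverse strand, and GCGTG at -47 on the reverse strand and at -9 on the forward strand. The capitals of the matches at -52 and -47 join in 1 run. The other window of Gdnf and that of Lhx1 held neither core. Such a match describes letters only, and whether any factor binds there was not tested.

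The genes around Ret in its pathway moved in different directions. Of 14 listed partners and targets of GDNF-RET signaling, 5 rose, 3 fell and 6 did not pass, with a median log2 fold change of 0.27. The 8 that passed are 57.1%, beside 45.7% of all tested genes. Without FeD kidney 2, 6 rose and 3 fell. Gfra1, the co-receptor that presents GDNF to RET, had 203.2, 207.0 and 173.6 normalized counts in control kidneys. In FeD kidneys Gfra1 had 478.3, 583.9 and 272.1, all above the controls (log2 fold change 1.19, SE 0.25, adjusted P = 0.0059, edgeR). FeD kidney 2, the library with adrenal RNA, was the highest, and the part of that RNA in the rise of Gfra1 was not tested. Etv5, a transcription factor that RET signaling turns on, rose from 272 ± 13.9 to 421 ± 27.8 normalized counts (log2 change 0.63, edgeR adjusted P = 0.0010). Its close relative Etv4 had 32.9 ± 11.7 and 35.8 ± 2.69 normalized counts and did not pass (adjusted P = 0.78, edgeR). Dusp6, a feedback phosphatase of the same kinase cascade, and Cxcr4, a chemokine receptor, rose by 0.95 and 1.14 on the log2 scale. Dusp6 rose unevenly, with 1315, 1086 and 2569 normalized counts in FeD kidneys.

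The target genes Wnt11 and Myb went the opposite way from Ret. Wnt11, which RET signaling induces at the tip and which in turn sustains Gdnf, had 245.4, 220.3 and 210.1 normalized counts in control kidneys and 44.0, 57.1 and 57.0 in FeD kidneys. The groups were far apart, and the log2 fold change was -2.09 (SE 0.16, adjusted P = 5.9e-05, edgeR). Myb, a transcription factor gene, fell from 24.0 ± 9.23 to 8.81 ± 1.12 normalized counts (log2 change -1.42, edgeR adjusted P = 0.016). It rested on few reads, with 35, 21 and 17 raw counts in control kidneys and 10, 6 and 10 in FeD kidneys. Myb passed the filter on low counts mainly through the control kidneys, in which it was higher. With at least 10 counts asked of every kidney, Myb was not tested. Of the listed pathway genes, 1 then fell in place of 3, and 6 rose in place of 5.

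**Figure D4:**
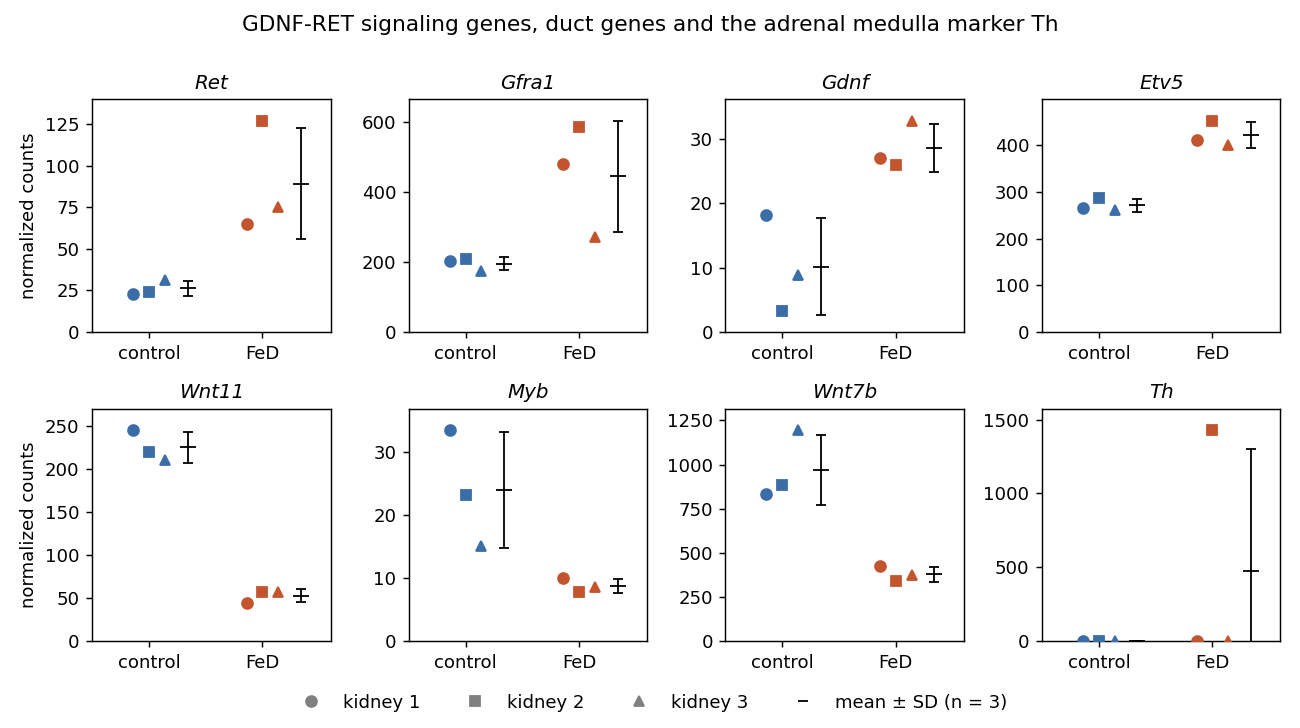
Normalized counts in each kidney of Ret, its co-receptor Gfra1, its ligand Gdnf, the targets Etv5, Wnt11 and Myb, the duct gene Wnt7b, and Th, a marker of the adrenal medulla, with the mean and SD of 3 kidneys (bars cut at 0). Every FeD kidney lies above the controls for Ret, Gfra1, Gdnf and Etv5 and below them for Wnt11, Myb and Wnt7b, and Th is high in FeD kidney 2 alone.

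Of 15 tested genes for other branching signals, 3 rose, 5 fell and 7 did not pass, with a median log2 fold change of 0.02. The share passing was 53.3%, beside 45.7% of all tested genes. Wnt7b and Wnt9b, signals made by the duct stalk, fell by 1.35 and 0.60 on the log2 scale (adjusted P = 0.00032 and 0.045, edgeR). The retinoic acid receptor Rarb, which acts upstream of Ret in the embryo, fell by 0.44 and the basement membrane gene Fras1 by 0.28 on the log2 scale (adjusted P = 0.043 and 0.038, edgeR). The receptors Fgfr2 and Robo2 rose, with log2 fold changes of 0.45 and 0.58. Grem1, a BMP antagonist that permits bud outgrowth, had 1.9 to 3.3 normalized counts in control kidneys and 282.2, 157.0 and 743.9 in FeD kidneys. Its raw counts were 2, 3 and 3 in control kidneys, at or under the floor of 3, so it passed the filter through the FeD kidneys alone. With at least 10 counts asked of every kidney, 2 of the branching genes rose in place of 3. The number that fell was 1 in place of 5 on leaving out control kidney 1, 2 or 3 or FeD kidney 1 or 2. As Ret is a duct gene, markers of collecting duct principal cells were set beside it. Of 7 such markers 4 rose and 2 fell, so 85.7% passed beside 45.7% of all tested genes. The largest rises were in the water channels Aqp2 and Aqp3, with log2 fold changes of 1.13 and 1.1. Avpr2 and Hsd11b2 fell, with log2 fold changes of -0.67 and -0.30 (adjusted P = 0.031 and 0.025, edgeR). The part of these markers in the rise of Ret was not tested.

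Other genes of the cap mesenchyme were set beside the progenitor regulators. Of 13 tested, 4 rose, 3 fell and 6 did not pass, so 53.8% passed beside 45.7% of all tested genes, and the median log2 difference was 0.11. The proteoglycan gene Spock2 rose from 224 ± 45.1 to 629 ± 232 normalized counts (log2 change 1.48, edgeR adjusted P = 0.0023). FeD kidney 2 had the most Spock2, with 892.8 normalized counts against 536.3 and 457.0 in FeD kidneys 1 and 3. Wt1, Hoxd11 and Fgf9 rose by less, with log2 fold changes of 0.73, 0.57 and 0.52. Wt1 is also a podocyte gene, and the 5 other podocyte markers had log2 fold changes of -0.18 to -0.03, with edgeR adjusted P values of 0.14 to 0.88. Crym, Itga8, the integrin subunit that lets the cap signal to the bud, and Meox1 fell, with log2 fold changes of -1.60, -1.17 and -1.0 (adjusted P = 0.00021, 0.0021 and 0.00048, edgeR). The number that rose dropped to 2 without control kidney 1 or 3 and to 1 without control kidney 2.

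For the next stages, from renal vesicle to S-shaped body, 18 genes were tested. Of these 2 rose, 2 fell and 14 did not pass, which is 22.2% passing beside 45.7% of all genes, and the median log2 difference was -0.06. Wnt4, the signal that turns progenitors into epithelium, had 366 ± 62.9 normalized counts in control and 272 ± 66.8 in FeD kidneys, a log2 fold change of -0.44 that missed the threshold (adjusted P = 0.088, edgeR). Osr2, a paralog of Osr1, and the Notch ligand Jag1 fell by 0.53 and 0.46 on the log2 scale. Bmp2, a secreted signal, rose by 0.79 on the log2 scale. With single kidneys left out, 1 gene rose without control kidney 2, 1 fell without control kidney 1 or 3, and 4 fell without FeD kidney 3. Of 8 cortical stromal progenitor genes, 2 rose and 2 fell, a share of 50% beside 45.7% of all tested genes. Foxd1, the factor that defines that lineage, rose from 65.4 ± 7.36 to 115 ± 15.6 normalized counts (log2 change 0.82, edgeR adjusted P = 0.0064), and Fat4 rose by 0.51. Meis2 and Ntn1 fell by 0.58 and 0.39 on the log2 scale. Just 1 stromal gene rose on leaving out any control kidney.

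Cell division genes gave a reference for growth in the same kidneys. All 8 listed markers fell at least 2-fold, beside 5.69% of all tested genes. Among them, the proliferation antigen gene Mki67 fell from 964 ± 101 to 207 ± 48.2 normalized counts (log2 change -2.22, edgeR adjusted P = 5.3e-05). Top2a, the topoisomerase of dividing cells, fell by 1.94 on the log2 scale. The summed level of the 8 genes was 2307 to 2649 normalized counts in control kidneys and 626 to 826 in FeD kidneys, while Ret, Eya1 and Gdnf were higher in the same FeD kidneys.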

How the data were processed

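Total RNA of 6 mouse kidneys was sequenced. Per the labels and the study's methods, the authors used TruSeq kits, CASAVA 1.8.2, Trimmomatic, TopHat2 2.0.11 with mm9, and HTSeq. The deposited values are raw counts per gene symbol, 1 column per kidney. Annotation, counting mode and strand setting are not given in the sources used here. Read depth sets the precision of rare transcripts, and totals are given above.

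Across all genes, edgeR 4.0.16 was run in R 4.3.3 (filterByExpr, TMM, quasi-likelihood F test), with Benjamini-Hochberg adjustment over 15145 genes. SE is the log2 fold change over the square root of F, and intervals are 95%. P values set the difference between diets against the spread between kidneys of a diet, which edgeR estimates partly from all genes. Whether that spread is between independent litters is not known. Normalized counts were scaled to the mean library. Exon lengths, positions and overlaps came from GENCODE on NCBIM37 (mm9). Procedures were tested on simulated data. Alternatives were DESeq2 1.42.0, its size factors, library size alone, other filters, a replicate block, a 2-fold threshold and each kidney left out. Genes and lists were chosen with earlier results of these data known. Named genes are the 10 members, up to 4 per list and direction with the largest change past the test and a mean level of 10 or more normalized counts, 7 pathway genes and the check genes Tfrc, Mki67 and Top2a. Some listed genes enter the counts but are not reported here by name.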

Additional observations from a re-analysis of the deposited data

How the results depend on the processing

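Among the 10 genes, 3 passed higher under all tests with 3 kidneys a group except 2 without filtering and 1 with at least 10 counts in every kidney, where Eya1 and Gdnf were not tested. The number lower, 1, became 0 without filtering, with DESeq2, with the replicate block and with a 2-fold threshold. Lhx1 then had log2 fold changes of -0.40 without filtering, -0.38 with DESeq2 and -0.39 with the block (adjusted P = 0.051, 0.059 and 0.067), and Gdnf 1.47 without filtering (adjusted P = 0.056). With each kidney left out, 1 to 4 of the genes passed higher and 0 to 2 lower. Log2 fold changes then ranged from -0.72 to -0.35 for Cited1, 1.39 to 2.42 for Eya1, -0.60 to -0.049 for Pax2, 0.11 to 0.25 for Pax8, -0.48 to -0.28 for Lhx1, 1.08 to 2.16 for Gdnf, -0.54 to -0.24 for Osr1 and -0.020 to 0.14 for Sall1. Over the 5 development lists, with 13, 18, 14, 15 and 8 tested genes, 16 genes rose and 15 fell. The share passing was 22.2% to 57.1% by list, beside 45.7% of all tested genes. With kidneys left out, 10 (without control kidney 2) to 18 rose and 9 (without control kidney 1) to 21 fell. At 2-fold 4 rose and 6 fell, beside 4.34% and 5.69% of all tested genes. Over all genes 657 were higher and 862 lower at 2-fold, against 3397 and 3527 without that threshold. Ranked over both groups without length, Ret, Eya1 and Osr1 stood at places 6, 7 and 8, against 7, 8 and 6 with it. Replicate numbers 1 to 3 occur in both groups, but over all tested genes kidneys with the same number did not deviate together (correlations -0.16, 0.0029 and -0.04). With 3 kidneys a group, these correlations cannot show whether a number stands for a shared litter or batch. For Pax2 the SE was 0.14 with the replicate block and 0.23 without it. Its log2 fold change with the block was -0.35 (adjusted P = 0.080, edgeR). With the replicate block, 3 genes were higher and 0 lower, and over all genes 3100 were higher and 3344 lower. The cause of these shifts was not tested. Depth limits Six2, Gdnf and Eya1 most.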

Other observations

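Of 13 tested paralogs of the 10 genes, 3 rose, 4 fell and 6 did not pass, so 53.8% passed beside 45.7% of all tested genes, and their median log2 difference was -0.17. Cited4 rose from 72.4 ± 5.64 to 202 ± 65.9 normalized counts (SD, n = 3, log2 change 1.49, edgeR adjusted P = 0.0016), while Cited1 had a lower mean. Eya4, like Eya1, rose (log2 fold change 0.76, adjusted P = 0.030, edgeR). Sall3 fell by 0.49 on the log2 scale (adjusted P = 0.021, edgeR), and Sall1 did not pass. Artn, a ligand of the GDNF family with its own co-receptor, fell from 51.9 ± 7.73 to 22.7 ± 5.6 normalized counts (log2 change -1.18, edgeR adjusted P = 0.0073), the opposite direction from Gdnf.

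Of 9 tested fetal and neonatal growth genes, 3 rose, 1 fell and 5 did not pass, so 44.4% passed beside 45.7% of all tested genes. Igf2bp2 and Igf2bp3, RNA-binding proteins of fetal tissues, rose by 1.5 and 0.80 on the log2 scale (adjusted P = 0.00028 and 0.0081, edgeR). Igf2 rose by 0.62 (adjusted P = 0.036, edgeR), with 419.3, 516.5 and 288.6 normalized counts in FeD kidneys 1, 2 and 3. Mest fell by 0.61 (adjusted P = 0.021, edgeR). Dlk1 had 929.1 normalized counts in FeD kidney 2 and 28.5 to 87.2 in the other 5 kidneys, a pattern shared with the adrenal markers there, and it is named after its values were seen. Control kidney 1 had 122.7 normalized counts of the adrenal gene Cyp11a1, against 4.4 and 4.5 in the other control kidneys, with Cyp11b1 at 0, also named after the values were seen.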
